A study of Homo sapiens with 6 samples.

Results

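Pseudouridine synthases convert single uridines of an RNA chain into pseudouridine, an isomer in which the base is joined to the sugar through carbon instead of nitrogen. The stand-alone enzymes find their target uridine by themselves, whereas dyskerin (*DKC1*) does so with the help of guide RNAs in H/ACA ribonucleoproteins and is not counted among them. Their best known substrates are transfer RNAs, but several of them also modify messenger RNAs or the RNAs of mitochondria. The 10 genes described here, of 21475 genes listed, are *PUS1*, *PUS3*, *PUS7*, *PUS7L*, *PUS10*, *PUSL1*, *TRUB1*, *TRUB2*, *RPUSD2* and *RPUSD4*. They were chosen by gene symbol around *PUS7*, whose values in these same WT and *FGFR2* KO libraries were known when the group was put together. The comparison of KO with WT is therefore given for all 10 as a description, and the p thresholds counted below are not read as a test of the group. All 10 were found in the tables, and all 10 passed the filter on low values, which asked for 0.5 FPKM or more on average across the 6 libraries.

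The libraries came from 3 WT and 3 *FGFR2* KO lines of HaCaT, a spontaneously immortalized human keratinocyte line, grown in medium with serum and without an added stimulus. KO lines were raised from single cells after nucleofection of Cas9 with an sgRNA against exon 7 of *FGFR2*, so that each KO line is 1 clone. The study also kept its unedited starting population as a WT line, but describes the HaCaT lines of this RNA-seq as clonally expanded. RNA was enriched for poly(A) and sequenced from stranded libraries, and expression was given as FPKM, fragments scaled by gene model length and by the depth of the library. The depth, estimated from the steps between low FPKM values, was 67600000 to 80900000 fragments in WT and 71200000 to 87900000 fragments in KO libraries.

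The level of *FGFR2* was 21.6, 39.7 and 15.02 FPKM in the WT libraries, listed here and below in the order of replicates 1, 2 and 3, and 3.04, 2.26 and 4.31 FPKM in the KO libraries, without overlap between the groups. The summed level of 8 keratinocyte markers was 11076 to 17936 FPKM in WT and 14736 to 27561 FPKM in KO libraries, with the keratin *KRT5* at 6086 FPKM or more in each. Of the 8, 6 had a positive log2 fold change, and their median was 0.15, against 0.09 for all tested genes. The count of 6 was 4 with median-of-ratios scaling, 3 without KO replicate 1 and 7 without KO replicate 3. The cadherin *CDH1* was lower in each KO line, with 243.2, 245.6 and 234.6 FPKM in WT and 222.4, 213.0 and 165.9 FPKM in KO libraries (log2 fold change -0.28, standard error 0.15). The summed level of 5 melanocyte markers was 0.881 to 2.44 FPKM in WT and 0.708 to 1.07 FPKM in KO libraries, nearly all from *PMEL* (log2 fold change -0.42, standard error 0.33), with *SOX10* at 0 in all 6 libraries. The summed level of 6 fibroblast markers was 7.99 to 33.2 FPKM in WT and 6.91 to 12.6 FPKM in KO libraries. Its highest value, in WT replicate 2, held 16.7 FPKM of *COL1A1* and 15.5 FPKM of *DCN*. In the other libraries *DCN* was at 1.66 FPKM or less and the sum was mostly *COL1A1*, whose groups overlapped (log2 fold change -0.51, standard error 0.33). The summed level of 7 leukocyte and endothelial markers was 19.0 to 28.2 FPKM in WT and 6.67 to 18.4 FPKM in KO libraries, without overlap between the groups. It was mostly *VWF*, with 18.0, 19.2 and 27.1 FPKM in WT and 17.4, 15.6 and 5.66 FPKM in KO libraries. The endothelial markers *PECAM1* and *CDH5* had overlapping groups. *PECAM1* was at 0.321 FPKM or less, and *CDH5* at 4.92 FPKM in WT replicate 2 and 0.128 FPKM or less elsewhere. *PTPRC* of leukocytes was at 0.153 FPKM or less. The share of the summed FPKM from mitochondrial genes was 21.5% to 27.6% in WT lines, against 15.8%, 23.7% and 11.9% in the KO lines. The part of these differences in the values below was not tested, and in bulk samples fewer cells of a type and less RNA per cell cannot be told apart.

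*PUS7* (ENSG00000091127, chromosome 7, 105439661 to 105522271, minus strand, GRCh38) has 16 exons in its MANE transcript. RefSeq promoter windows, 250 bases before to 50 bases after a transcription start, were at hand for 7 of the 10 genes (11 windows), and the letters of 7 motifs were searched in them on both strands. The stretch of 120 bases upstream of the *PUS7* start is shown because this is the gene with the largest difference between KO and WT lines among the 10. Capitals mark the GC box letters GGGCGG on either strand (chr7:105522272-105522391, minus strand, GRCh38.p14).

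PUS7 upstream: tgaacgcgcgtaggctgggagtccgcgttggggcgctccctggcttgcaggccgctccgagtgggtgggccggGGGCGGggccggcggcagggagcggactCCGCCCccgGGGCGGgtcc

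The E-box letters CACGTG, a sequence that MYC with MAX and the USF factors are known to bind, occurred in windows of 3 of the 7 genes, *PUS7*, *TRUB2* and *RPUSD4*. Each occurrence is shown with its neighbouring bases, 30 bases in all, with the E-box in capitals. Counted by window, 3 of the 11 windows contain these letters, beside 7.26% of all 35116 RefSeq promoter windows. In *PUS7* they lie in exon 1, from base 29 to base 34 counted from the start, and *RPUSD4* has 3 occurrences upstream of its RefSeq start, the nearest of them inside the longer GENCODE gene. The *TRUB2* occurrence belongs to the more downstream of 2 annotated starts.

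PUS7 (chr7:105522226-105522255): gtcgctgcgccgCACGTGtgcgagcccggc
RPUSD4 (chr11:126211739-126211768): gcgcaccgtcccCACGTGactcgcccaggc
RPUSD4 (chr11:126211709-126211738): cccaccccgcacCACGTGacctgcagggcc
RPUSD4 (chr11:126211657-126211686): gtcgcccttctcCACGTGgtcttggctcgc
TRUB2 (chr9:128322196-128322225): ccaaaacaaaatCACGTGacctattcacct

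All 5 sequences are on the minus strand and run in the direction of transcription. The GC box letters were found in windows of 5 genes (*PUS3*, *PUS7*, *PUS10*, *TRUB2* and *RPUSD4*). These were 6 of the 11 windows, beside 45% of all windows. The ETS letters CCGGAAG were found in 2 of the 11 windows, of *PUS10* and *TRUB2*, beside 10.3% of all windows. The letters TGANTCA (AP-1), TGACGTCA (CRE) and TTTCGCGC (E2F) and the NRF1 palindrome were in none of the 11 windows, and in 7.71%, 1.85%, 0.515% and 1.24% of all windows. A match of letters is no measure of binding. The *PUS7* window had a GC content of 68.3% against a median of 58.7% over all windows, and *RPUSD4* was close to it with 67.7%, whereas *RPUSD2* (51.7%), *PUS3* (51%), *TRUB1* (48.3%) and the 4 windows of *PUS10* (43.7% to 55.7%) were below that median.

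Ordered by their WT mean, the 10 genes ran from 39.3 down to 3.47 FPKM, and *PUS7* stood near the bottom. *TRUB2*, a mitochondrial enzyme, had the highest level with 39.3 ± 6.15 FPKM (SD, n = 3 lines), followed by *RPUSD4*, which acts in mitochondria as well, with 18.9 ± 5.64 FPKM. Both kept these places in each WT library, and their ranges overlapped neither with each other nor with the next gene. *PUS3* (11.5 ± 0.542 FPKM), *RPUSD2* (10.4 ± 0.753 FPKM), *PUS1* (10.1 ± 0.753 FPKM), *PUSL1* (8.77 ± 1.13 FPKM), *TRUB1* (7.97 ± 1.34 FPKM) and *PUS7L* (6.83 ± 0.603 FPKM) followed, and the ranges of neighbours among these 6 overlapped. *PUS7* came next with 5.44 ± 1.15 FPKM and overlapped with *PUS7L* in range, although it was the lower of the pair in each of the 3 WT libraries. *PUS10* was lowest with 3.47 ± 0.595 FPKM, with no overlap with *PUS7*. Its lowest single value, in KO replicate 3, still corresponds to about 137 fragments per kilobase of transcript, so that counting error alone was 8.55% of the value on 1 kb of transcript. For *PUS7* this counting error was at most 5.87%.

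In KO lines the order was different. *PUS7* was in place 9 of 10 in each WT library and in places 4, 5 and 4 in KO replicates 1, 2 and 3. *PUS1* was in place 5 in each WT library and in places 3, 3 and 2 in the KO libraries. *PUS3* went the other way, from place 3 or 4 in WT to place 6 or 7 in KO libraries, with a ratio of KO to WT means of 1.12. *TRUB2* at the top and *PUS10* at the bottom had the same place in all 6 libraries.

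**Figure D1:**
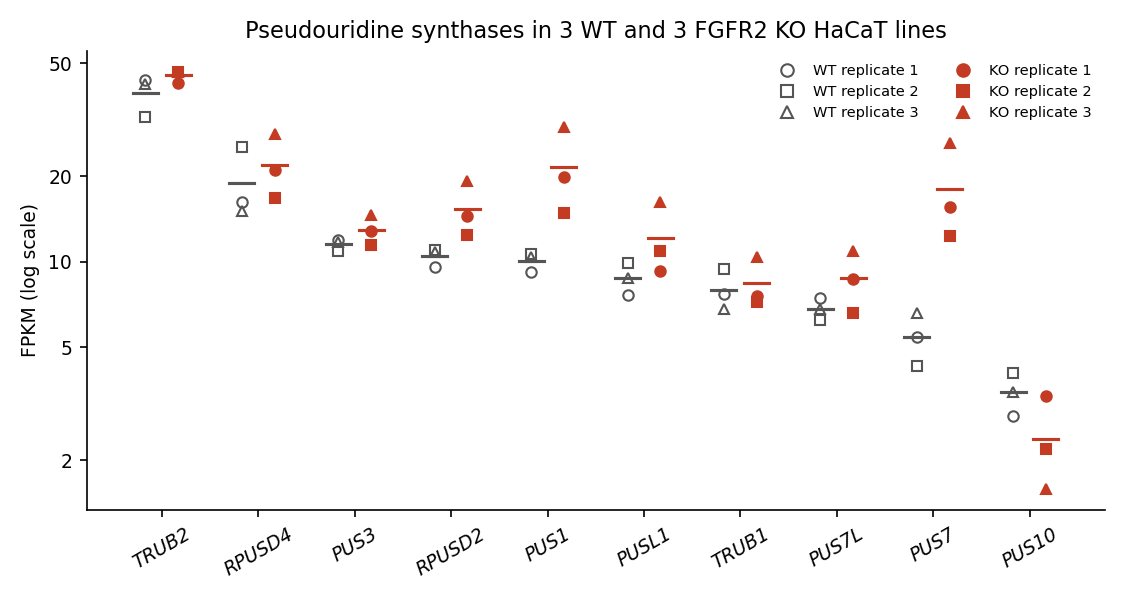
FPKM of the 10 pseudouridine synthases on a log axis, ordered by their WT mean, with 1 symbol per library (open, WT; filled, *FGFR2* KO; shape, replicate number) and a bar for the mean of each group. In *PUS7*, *PUS1* and *RPUSD2* all KO values lie above all WT values, and KO replicate 3 is the highest library for 9 of the 10 genes and the lowest for *PUS10*.

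*PUS7* and *PUS7L* belong to the TruD family. *PUS7* modifies transfer RNAs, fragments derived from them and messenger RNAs, and its inherited loss causes a disorder of brain development. Its levels were 5.44, 4.29 and 6.59 FPKM in the WT lines, and 15.5, 12.3 and 26.1 FPKM in the KO lines. Every KO line was above every WT line, the lowest KO value being 1.87 times the highest WT value, and the KO lines differed more among themselves (17.99 ± 7.19 FPKM, SD, n = 3) than the WT lines did. The ratio of the means was 3.31, and the log2 fold change on log2(FPKM + 0.5) was 1.59 with a standard error of 0.29. By this fold change *PUS7* was in place 29 from the top among 12241 tested genes. Leaving out each library in turn gave log2 fold changes between 1.29, without KO replicate 3, and 1.82, without KO replicate 2. The 564 tested genes of chromosome 7 had a median log2 difference from the other WT libraries between -0.03 and 0.02 in the 6 libraries, relative to the median of all genes in the library.

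The paralog *PUS7L* (ENSG00000129317, chromosome 12, 43718992 to 43758793, minus strand) had much closer groups. Its values were 7.45, 6.24 and 6.80 FPKM in WT and 8.71, 6.58 and 10.9 FPKM in KO libraries. KO replicate 2 lay within the WT range, and the log2 fold change was 0.31 (standard error 0.20), with 0.14 without KO replicate 3 and 0.49 without KO replicate 2. Within a library, where the scaling between libraries cancels, *PUS7* was 0.730, 0.688 and 0.968 times the FPKM of *PUS7L* in WT and 1.78, 1.88 and 2.39 times in KO lines. The paralog with the higher level was thus *PUS7L* in each WT line and *PUS7* in each KO line. *PUS7* made up 4.43% ± 0.954 of the summed FPKM of the 10 genes in WT and 10.5% ± 2.09 in KO lines (SD, n = 3 each).

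*PUS1*, *PUS3* and *PUSL1* are the TruA family enzymes. *PUS1* modifies transfer RNAs in the nucleus and in mitochondria, and its inherited loss causes a myopathy with sideroblastic anaemia. *PUS1* (ENSG00000177192, chromosome 12, 131929200 to 131945896, plus strand) had 9.22, 10.6 and 10.4 FPKM in WT and 19.9, 14.8 and 29.7 FPKM in KO libraries. The groups did not overlap, the ratio of the means was 2.13 and the log2 fold change was 1.002 (standard error 0.24), the second largest of the 10 after *PUS7*. Leaving out each library in turn gave values between 0.74, without KO replicate 3, and 1.23, without KO replicate 2. Set against *PUSL1* of the same family, *PUS1* had 1.21, 1.07 and 1.19 times its FPKM in WT and 2.15, 1.36 and 1.83 times its FPKM in KO libraries, again without overlap.

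*PUS3* modifies the anticodon arm of transfer RNAs. It was the most even of the 10 genes over the WT lines, with 11.9, 10.9 and 11.7 FPKM, against 12.8, 11.5 and 14.6 FPKM in KO lines. Its groups overlapped, and its log2 fold change was 0.16 (standard error 0.15), with 0.07 without KO replicate 3 and 0.24 without KO replicate 2. *PUSL1*, a mitochondrial member of the family, had 7.64, 9.90 and 8.78 FPKM in WT and 9.24, 10.9 and 16.2 FPKM in KO libraries. KO replicate 1 lay inside the WT range, and the log2 fold change was 0.41 (standard error 0.23), or 0.19 without KO replicate 3.

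The TruB family enzymes *TRUB1* and *TRUB2* had small differences. *TRUB1*, which forms the pseudouridine of the T arm of transfer RNAs, had 7.66, 9.43 and 6.81 FPKM in WT and 7.58, 7.22 and 10.4 FPKM in KO libraries. Its groups overlapped on both sides, and the log2 fold change of 0.07 (standard error 0.20) was below 0 in 4 of 15 alternative settings, 2 of them other scalings of the libraries. *TRUB1* lies on chromosome 10, as *FGFR2* does. Relative to the library median, the 463 tested genes of this chromosome had medians of 0.04, 0.20 and -0.24 in WT libraries. In KO libraries these medians were -0.43, -0.16 and -0.19, so that WT replicate 3 was lower than KO replicates 2 and 3. After subtracting chromosome medians within libraries, *TRUB1* had a log2 fold change of 0.22.

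*TRUB2*, which acts on mitochondrial messenger RNA, had 43.5, 32.3 and 42.2 FPKM in WT and 42.6, 46.6 and 46.6 FPKM in KO libraries. The low WT value was that of replicate 2, and KO replicate 1 lay inside the WT range. The log2 fold change of 0.21 (standard error 0.15) was 0.01 with chromosome medians removed and 0.08 without WT replicate 2. Genes of chromosome 9 had a median of -0.23 in WT replicate 2, relative to the library median, and between 0.08 and 0.15 in the other 5 libraries.

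Of the RluA family enzymes, *RPUSD2* separated the groups and *RPUSD4* did not. *RPUSD2* (ENSG00000166133, chromosome 15, 40569299 to 40574949, plus strand) had 9.57, 11.0 and 10.8 FPKM in WT and 14.5, 12.4 and 19.2 FPKM in KO libraries. All KO values were above all WT values, with a log2 fold change of 0.52 (standard error 0.19). *RPUSD4*, which modifies mitochondrial ribosomal RNA, had 16.2, 25.4 and 15.1 FPKM in WT and 21.0, 16.7 and 28.1 FPKM in KO libraries. WT replicate 2 was higher than 2 of the 3 KO lines, and the log2 fold change of 0.22 (standard error 0.26) lay between 0.03, without KO replicate 3, and 0.44, without WT replicate 2, over the alternatives. WT replicate 2 was also the library in which chromosome 11, with *RPUSD4* and *PUS3* on it, had a median of 0.30.

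*PUS10*, the only human member of a family of its own, modifies the T arm of transfer RNAs and also takes part in microRNA processing. It was the only 1 of the 10 genes with a lower mean in KO lines. Its values were 2.86, 4.05 and 3.48 FPKM in WT and 3.37, 2.19 and 1.58 FPKM in KO libraries. KO replicate 1 lay inside the WT range, whereas replicates 2 and 3 lay below it, and the log2 fold change was -0.50 (standard error 0.27). It stayed below 0 in each of the 15 alternatives, between -0.73, without KO replicate 1, and -0.29, without KO replicate 3. In KO replicate 3, *PUS7* had 16.5 times the FPKM of *PUS10*, against 1.06 to 1.90 times in the WT libraries.

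**Figure D2:**
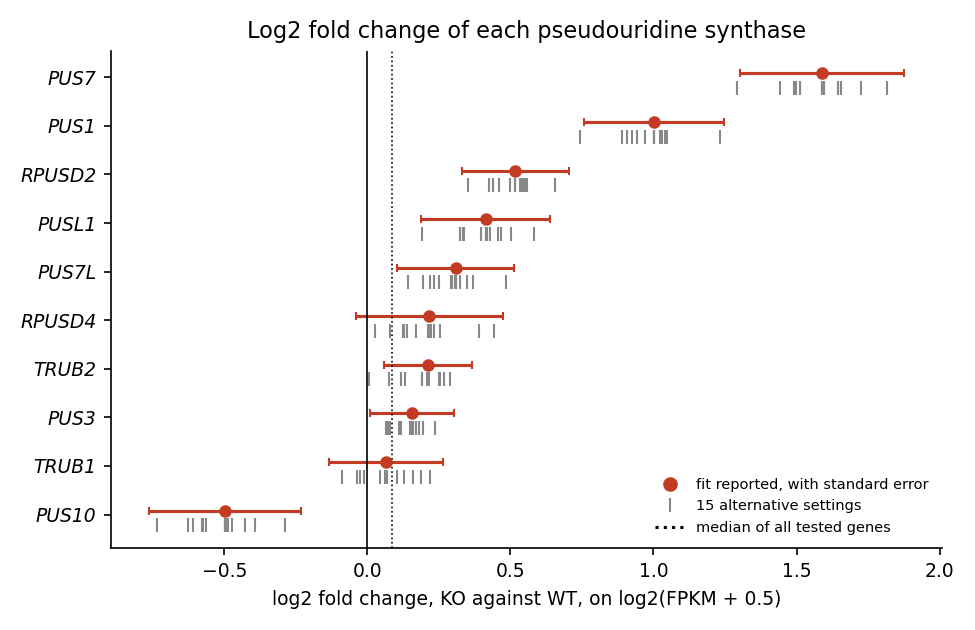
Log2 fold change of each pseudouridine synthase between KO and WT lines (horizontal axis, on log2(FPKM + 0.5)), with its standard error (n = 3 against 3) and, as ticks, the values in 15 alternative settings of scaling, filter, pseudocount and samples. *PUS7* stays at 1.29 or more and *PUS1* at 0.74 or more in every setting, *PUS10* stays below 0, and *TRUB1* has values on both sides of 0.

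Of the 10 genes, 0 were past an adjusted p of 0.05 and a log2 fold change of 0.5 in size in limma's fit over all 12241 tested genes, in which 0% of all genes were past both thresholds. The knocked-out *FGFR2* itself was not past the adjusted threshold in this limma fit (adjusted p 0.26). The paper, with DESeq2, reports differentially expressed genes between its WT and KO lines, so 0 calls here does not mean that no gene changed. With the same fold and the unadjusted p held to 0.05, 3 of the 10 were higher in KO (*PUS7*, *PUS1* and *RPUSD2*), beside 10.2% of all tested genes, and 0 were lower, beside 2.33% of all tested genes. The same 3 genes had all KO values above all WT values, beside 18.3% of tested genes, and 0 had all KO values below, beside 5.77%. These counts rest on the contrast for which *PUS7* was known and are not read as a property of the group. The split of all genes at the unadjusted threshold depended on scaling, with 1251 higher and 285 lower as given, 818 and 488 with median-of-ratios scaling, 930 and 400 with scaling to nuclear genes, and 762 and 492 with chromosome medians removed. The last of these moved the median of all tested genes from 0.09 to -0.02, and with it *PUS7* was at 1.49 and *PUS10*, at -0.63, was past the unadjusted threshold as lower. Under median-of-ratios scaling, *PUS7* was at 1.497 on the log2 scale, *PUS1* at 0.91 and *RPUSD2* at 0.43, the last below the fold threshold. Without KO replicate 1, 4 of the 10 were past the unadjusted threshold as higher and 1, *PUS10*, as lower, beside 10.0% and 2.73% of tested genes. Without WT replicate 1 or KO replicate 3, 2 of the 10 were past it as higher and 0 as lower, beside 6.27% and 4.40% of tested genes as higher. The number of the 10 with all KO values above all WT values was 5 without WT replicate 2, KO replicate 1 or KO replicate 2, beside 27.1%, 24.5% and 31.4% of tested genes, and *PUS7*, *PUS1* and *RPUSD2* were among them whichever library was left out. The median log2 fold change of the 10 was 0.26, against 0.09 for all tested genes.

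As the median over the 10 genes of the log2 difference from the WT mean, KO replicates 1, 2 and 3 had 0.17, 0.12 and 0.62, and WT replicates 1, 2 and 3 had -0.08, 0.07 and 0.02. KO replicate 3, the library with the lowest mitochondrial share, was thus the farthest from WT. Their summed level was 121.5, 124.1 and 122.7 FPKM in WT and 155.4, 141.3 and 203.4 FPKM in KO lines. With each library scaled to its nuclear genes, the log2 fold change of *PUS7* was 1.51 and that of *PUS1* 0.92.

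Within 2 kb of the starts of *PUS7*, *RPUSD2* and *TRUB1* no gene begins on the opposite strand in GENCODE, and beside *PUS1* only the antisense RNA *PUS1-AS1* does. The other 6 have a protein-coding gene head to head, which was *COQ4* for *TRUB2*, *FAM118B* for *RPUSD4*, *DDX25* for *PUS3*, *IRAK4* for *PUS7L*, *PEX13* for *PUS10* and *ACAP3* for *PUSL1*. *FAM118B*, whose start is 32 bases from that of *RPUSD4*, had 6.73, 10.9 and 7.45 FPKM in WT and 10.1, 8.64 and 10.9 FPKM in KO libraries. Like *RPUSD4*, it was highest among WT lines in replicate 2 and lowest among KO lines in replicate 2. *PEX13*, with a log2 fold change of -0.17 (standard error 0.18) beside -0.50 for *PUS10*, had the same order of lines as *PUS10* within WT and within KO. *ACAP3*, at -0.02 (standard error 0.14) beside 0.41 for *PUSL1*, had the order of *PUSL1* within WT but not within KO. *IRAK4*, at -0.07 (standard error 0.18) beside 0.31 for *PUS7L*, was highest among WT lines in replicate 2, where *PUS7L* was lowest. *COQ4* had 60.8, 66.0 and 73.2 FPKM in WT and 66.8, 76.4 and 66.2 FPKM in KO libraries, an order that *TRUB2* did not share in either group. *DDX25* was below 0.1 FPKM in all libraries. *PEX13* and *ACAP3* overlap their partner by 1035 and 1013 bases. Protein-coding genes on the opposite strand that are not head to head overlap members as well. These are *SWI5* with *TRUB2* (10965 bases), *HYLS1* with *PUS3* (7162 bases) and *INTS11* with *PUSL1* (93 bases), counted over whole genes with their introns. The library kit keeps the strand, but whether the quantification used it is not given in the sources used here, so fragments from the overlaps could have been counted for either gene.

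Other genes of pseudouridylation and RNA modification were taken from lists written with earlier results of these data known. In each of them 0 genes were past the adjusted threshold. Their other counts stand beside 10.2% of all tested genes past the unadjusted threshold as higher in KO, and 18.3% with all KO values above all WT values. The share past the unadjusted threshold as higher was 6.68% with median-of-ratios scaling, 7.60% with scaling to nuclear genes and 6.22% with chromosome medians removed. It was 6.27%, 8% and 12.3% without WT replicates 1, 2 and 3, and 10.0%, 14.3% and 4.40% without KO replicates 1, 2 and 3. The 2 remaining RPUSD genes, *RPUSD1* and *RPUSD3*, had all KO values above all WT values. *RPUSD1* had 28.5, 29.0 and 35.3 FPKM in WT and 39.4, 38.3 and 51.8 FPKM in KO libraries, and *RPUSD3* was at 0.38 on the log2 scale (standard error 0.16). The H/ACA list, proteins of the guide-RNA dependent machinery, had 3 of 6 genes past the unadjusted threshold, all higher in KO and beside 10.2% of tested genes, and a median of 0.49. *DKC1*, its catalytic subunit, had 59.0, 50.8 and 64.9 FPKM in WT and 112.7, 91.3 and 180.8 FPKM in KO libraries, with no overlap and a fold change of 1.08 on the log2 scale (standard error 0.25). *NAF1*, an assembly factor, had 0.66 (standard error 0.23) and *NHP2*, a core protein, 0.55 (standard error 0.23), the latter with overlapping groups. The count of 3 was 1 without WT replicate 1, WT replicate 2 or KO replicate 3, 2 without KO replicate 1, and 5 without KO replicate 2. It was also 2 with median-of-ratios scaling, scaling to nuclear genes or chromosome medians removed. Without the filter on low values it was 2 as well, beside 6.06% of tested genes.

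The mitochondrial list, which holds *RPUSD3*, *RPUSD4* and *TRUB2* with proteins known to work beside them, had 1 of 6 genes past the unadjusted threshold. The count was 0 with chromosome medians removed and without WT replicate 1, WT replicate 3, KO replicate 1 or KO replicate 3. The 1 gene was *FASTKD2*, an RNA-binding protein of mitochondrial granules, at 0.63 (standard error 0.24). Of the 6 genes, 4 were separated between the groups, beside 18.3% of all tested genes. The 4 core proteins of the C/D box particles, which carry out ribose methylation, were all past it, beside 10.2% of tested genes, and 2 of the 4 were without KO replicate 3, beside 4.40%. *NOP56* had 56.6, 58.2 and 73.9 FPKM in WT and 149.0, 114.8 and 279.9 FPKM in KO libraries (log2 fold change 1.43, standard error 0.31), *NOP58* had 0.70, *FBL*, the methyltransferase, 0.69, and *SNU13* 0.61.

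Of 32 tRNA methyltransferase genes, 12 were past the unadjusted threshold, all higher in KO, beside 10.2% of tested genes, and 18 had all KO values above all WT values, beside 18.3%. The number past the threshold was 6 with median-of-ratios scaling (beside 6.68% of tested genes) or with chromosome medians removed (6.22%), 7 with scaling to nuclear genes (7.60%), 6 without WT replicate 1 (6.27%) and 5 without KO replicate 3 (4.40%). *METTL1*, the catalytic subunit for 7-methylguanosine in transfer RNA, had 6.17, 6.74 and 6.84 FPKM in WT and 14.4, 12.5 and 27.9 FPKM in KO libraries, which is 1.32 as a log2 fold change (standard error 0.29). Its partner subunit *WDR4* had 3.39, 3.41 and 5.82 FPKM in WT and 9.89, 6.90 and 14.995 FPKM in KO libraries, which is 1.21 as a log2 fold change (standard error 0.31). *TRMT1* had 0.79 (standard error 0.20), and *TRMT61A*, with overlapping groups, 0.72 (standard error 0.27). The dihydrouridine synthases had 2 of 4 genes past it, *DUS1L* at 0.94 (standard error 0.22) and *DUS3L* at 0.68 (standard error 0.21), with 1 left without KO replicate 3.

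Among 28 other tRNA modification genes all 28 had a positive log2 fold change, also under each other scaling, 6 were past the unadjusted threshold (beside 10.2% of tested genes) and 20 were separated (beside 18.3%), with a median of 0.35. Without KO replicate 3, 2 were past the threshold, beside 4.40% of tested genes, and without KO replicate 2, 10 were, beside 14.3%. The largest were *CTU2* of wobble uridine thiolation (0.95, standard error 0.26), *YRDC* of threonylcarbamoyladenosine synthesis (0.90, standard error 0.34) and *QTRT1* of queuosine insertion (0.83, standard error 0.25). The 13 mRNA modification genes had a median of 0.22, which was 0.02 with chromosome medians removed, with 2 past the unadjusted threshold, *NAT10*, a cytidine acetyltransferase (0.73, standard error 0.17), and *METTL3*, the catalytic subunit of the adenosine methyltransferase (0.57, standard error 0.19). These 2 stand beside 10.2% of tested genes, and 1 was past the threshold without WT replicate 1 or KO replicate 3, with median-of-ratios or nuclear-gene scaling and with chromosome medians removed. *PUDP*, a phosphatase of pseudouridine monophosphate, had overlapping groups and a log2 fold change of 0.15 (standard error 0.28), which was -0.05 without WT replicate 1 and 0.44 without WT replicate 2. The fold change of *PUS7* was larger than that of every gene named from these lists. As *PUS7* was chosen with its values known, this rank is a description only.

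The 5 tested genes whose log2(FPKM + 0.5) over the 6 libraries was most like that of *PUS7* were *REXO1*, *ADCY3*, *RPP40*, *RRP15* and *CDCA7*, with a Pearson r of 0.996 to 0.998. These libraries form 2 groups, and 12.8% of tested genes had an r of at least 0.9, so that r is a description of likeness only. *CDCA7*, a chromatin factor, came closest to *PUS7* in size, with 4.21, 3.62 and 5.26 FPKM in WT and 13.4, 8.996 and 21.9 FPKM in KO libraries. *ADCY3*, an adenylate cyclase, had 12.6, 10.9 and 14.98 FPKM in WT and 33.0, 24.3 and 48.3 FPKM in KO libraries. *RPP40*, a subunit of RNase P and RNase MRP, had a log2 fold change of 1.11, and *RRP15*, a ribosomal RNA processing protein, 0.85. *REXO1* had the highest r but a log2 fold change of only 0.26. All of them shared the order of the libraries with *PUS7*, with WT replicate 2 lowest and KO replicate 3 highest. Among the synthases, *PUS1* (r = 0.962) and *RPUSD2* (r = 0.934) were most like *PUS7* over these 6 libraries, *RPUSD4* (r = 0.405) and *TRUB1* (r = 0.296) were little like it, and *PUS10* (r = -0.775) ran opposite to it.

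**Figure D3:**
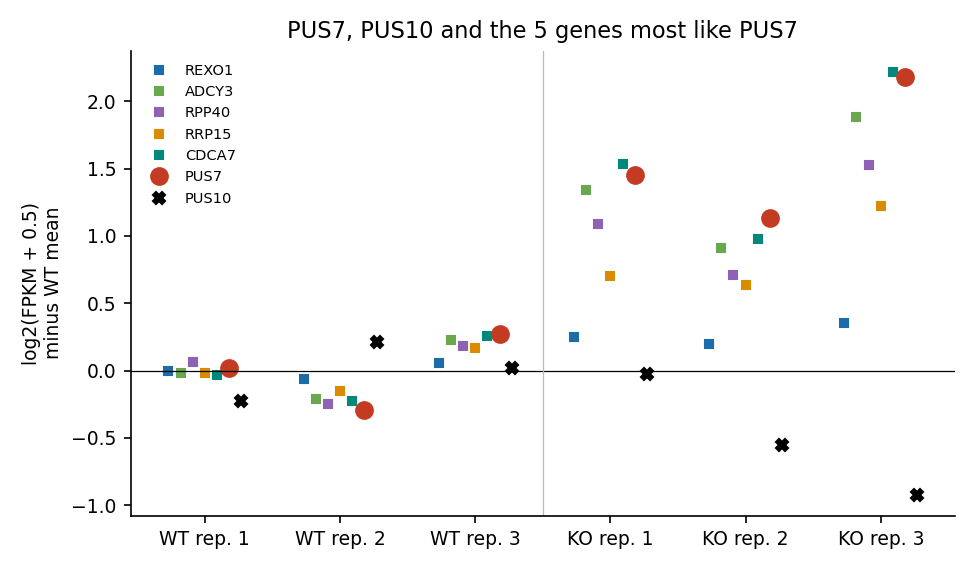
Difference of log2(FPKM + 0.5) from the WT mean in each library (WT left, *FGFR2* KO right of the vertical line) for *PUS7* (large circles), the 5 genes most like it over the 6 libraries (squares) and *PUS10* (crosses). *PUS7* and *CDCA7* lie close together in each library, *REXO1* follows the same order at a log2 fold change of 0.26, and *PUS10* is lowest in KO replicate 3.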

How the data were processed

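The authors trimmed reads with fastp 0.20.0 and quantified genes with Kallisto 0.46.1 on GRCh38.p13 with GENCODE release 37. The deposited values are FPKM per gene and library; how they were calculated from the Kallisto output is not given in the sources used here. Each table had 21493 rows; 18 Y copies of pseudoautosomal genes were left out. Symbols and positions came from GENCODE release 44 (21400 of 21475 genes). Between 69.3% and 75.9% of low values of single-transcript genes were whole fragments within 0.02, too few for count models.

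The 12241 genes that averaged 0.5 FPKM or more were fitted on log2(FPKM + 0.5) with limma 3.58.1 in R 4.3.3, with a mean-variance trend and Benjamini-Hochberg adjustment. The fit was tested on simulated data, in which the spread between libraries was capped below that of *PUS7* (SD within groups 0.43 on the log2 scale). That simulation therefore does not cover genes as variable as *PUS7*. Alternatives were another pseudocount, filter or scaling of the libraries, chromosome medians removed, a replicate block and each library left out. Replicates are separate lines with 1 library each. All 10 synthases are named, with, from each other list, up to 4 genes past the unadjusted threshold by size of change (else the highest and lowest), and the 5 genes most like *PUS7*; 1 gene that the rule names is not reported here, and neighbours were chosen after their values were seen. Members and lists were chosen with earlier results of these data known. Promoter sequences are from RefSeq (GRCh38.p14).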

Additional observations from a re-analysis of the deposited data

How the results depend on the processing

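In 15 alternative settings, limma called 0 genes at the adjusted threshold, with a smallest adjusted p between 0.0819 and 0.576, and the fold changes of 9 synthases kept their direction; that of *TRUB1* did not with median-of-ratios scaling, scaling to nuclear genes (chosen after seeing the data), without WT replicate 3 or without KO replicate 3. Past the unadjusted threshold there were 1536 genes, and 633 (without KO replicate 3) to 2262 (without KO replicate 2) with 1 library left out, or 961 without WT replicate 1. The median log2 fold change of the 10 synthases was 0.26, and 0.17 to 0.43 with 1 library left out. The labels do not say whether equal replicate numbers pair a WT with a KO line. Same-numbered libraries had correlations of -0.21, 0.22 and 0.05 in their deviations from the group means. Differently numbered ones had -0.37 to 0.29, so these values do not decide it. With the replicate block, 1762 genes were past the unadjusted threshold, 0 past the adjusted threshold, and the log2 fold change of *PUS7* was 1.59 (standard error 0.18). With 3 lines against 3, the spread between KO lines limits the precision more than the depth does.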

Other observations

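With the group means removed, the 5 tested genes that varied most like *PUS7* between lines of the same group were *E2F4*, *DTD2*, *THUMPD3*, *ALAS1* and *SRP72*, with r of 0.9986 to 0.99995 over the 6 libraries, where 7.16% of tested genes had an r of at least 0.9. *E2F4*, a cell cycle transcription factor, had 89.3, 82.9 and 95.1 FPKM in WT and 114.2, 105.9 and 136.5 FPKM in KO libraries. *THUMPD3*, a tRNA methyltransferase that was in none of the lists, had 16.9, 15.2 and 18.6 FPKM in WT and 21.3, 19.2 and 26.7 FPKM in KO libraries. *DTD2*, a D-aminoacyl-tRNA deacylase, had a log2 fold change of 0.50. Among the synthases, *PUS3* (r = 0.947), *PUS7L* (r = 0.885), *PUS1* (r = 0.840) and *RPUSD2* (r = 0.816) varied with *PUS7* within the groups, and *PUS10* (r = -0.579) varied against it.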
